A study of Mus musculus with 9 samples.

Results

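The genes followed here, 10 in number, belong to eicosanoid synthesis and reception, and they were traced through uninjured, tape-stripped and graphene oxide-treated mouse skin. They were taken by gene symbol from count tables of 23282 entries (23238 unique symbols) per library, and all 10 were found: the phospholipase A2 genes Pla2g4a, Pla2g4e and Pla2g2f, the prostaglandin genes Ptgs1, Ptgs2 and Ptges, the lipoxygenase-branch genes Alox5ap and Alox15, and the receptor genes Ltb4r1 and Ptger4. The study measured RNA from back skin of wild-type C57BL/6 (B6) mice by 3′-tag sequencing, which counts about 1 tag per transcript and so needs no correction for length. There were 3 groups of 3 libraries. The first was unstripped skin, labelled with control cream. The second was skin injured by tape stripping, in which adhesive tape peels off the outer epidermis, with control cream. The third was skin stripped in the same way and given NGO, a nano-sized form of the carbon material graphene oxide, as a cream dosed at 50 µg in 100 µL per mouse. Skin was taken after 24 h. The labels do not settle whether cream touched the unstripped skin, how old the mice were, or whether each library came from its own animal. The p-values therefore describe spread among libraries, which may be technical.

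Eicosanoids are lipid signals made from arachidonic acid. Phospholipases A2 release fatty acids from membranes, cyclooxygenases (Ptgs1 and Ptgs2) turn arachidonic acid into prostaglandin H2, and Ptges converts that into prostaglandin E2, which acts through receptors such as Ptger4. Lipoxygenases form the other branch, in which 5-lipoxygenase needs the membrane protein encoded by Alox5ap to make leukotrienes, and leukotriene B4 draws leukocytes through Ltb4r1. In skin these signals come both from keratinocytes and from blood-derived cells, and they take part in barrier upkeep, pain, vessel widening and neutrophil entry.

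Total counts ran from 2019739 to 6303322 per library. Entries above 0 numbered 14546 to 16183 in unstripped skin, 12433 to 13309 after stripping with control cream and 13863 to 14404 with NGO. Stripped control replicates 2 and 3 (13254 and 13309 entries) had more total counts than any unstripped library (3835539 and 4053655 against at most 2937738). All 8 basal keratinocyte markers were above 0 in every library, and their summed level was 23093 to 31817 CPM (counts scaled to a common library size with TMM factors) in unstripped skin, 1865 to 2998 after stripping with control cream and 12110 to 18790 with NGO. The 10 suprabasal markers with an entry (of 11 listed) summed to 17896 to 20441, 885 to 1245 and 7988 to 14253 CPM, with 5 of the 10 above 0 in every stripped control library and Ivl at 0 in all 3 of them and Krt1 in replicates 1 and 3. Neutrophil markers (14 of 15 listed had an entry) summed to 85.0 to 117, 3803 to 10742 and 589 to 1821 CPM, with Camp at 0 in every library. Skeletal muscle markers, 12 of 12 detected in every library, took 0.00841% to 0.141%, 4.28% to 9.44% and 2.22% to 4.30% of counts in the same order. The part of these shifts in the results below was not tested except where a value is given, and in bulk skin fewer cells of a type and less RNA per cell cannot be told apart.

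Stripping was followed by lower RNA of 4 members and higher RNA of 1. Pla2g2f, Ptgs1, Ltb4r1 and Ptger4 fell and Pla2g4e rose among 9 tested members (edgeR quasi-likelihood test, adjusted p under 0.05 over all 13740 genes tested). Alox15 did not pass the low-count filter and was not tested. Of all genes tested, 13.6% were called in this comparison, 5.97% higher and 7.64% lower. The balance of these calls turned with the setting, from 820 higher and 1050 lower to 948 and 931 with RLE scaling and 1405 and 1184 with limma-voom. The groups did not overlap for 7 of the 9 members, against 38.5% of all genes. With NGO on stripped skin, Ltb4r1 and Pla2g2f were higher than in stripped control skin and no member was lower, against 5.05% of all genes called, 3.87% higher and 1.18% lower (532 higher and 162 lower, and 428 and 215 with RLE scaling). In NGO-treated against unstripped skin Pla2g4e alone was called, higher, against 2.51% of all genes called, 2.06% higher and 0.451% lower. The groups of these 2 comparisons did not overlap for 5 and 6 members, against 25.2% and 26.2% of all genes. The median log2 fold change of the 9 tested members was -1.31, 1.63 and 0.20 in these 3 comparisons, and -0.20, 0.07 and -0.07 over all genes. Setting Pla2g2f, which had no counts in stripped control skin, to its bound left the 3 member medians at -1.31, 1.63 and 0.20. They could not move, because the bound lies on the same side of the median as the fitted value, so this is no check of them. The first 2 comparisons share the stripped control libraries, so a gene low in those libraries tends to be lower in one and higher in the other.

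Leaving out libraries moved these counts. The count after stripping was 2 (Pla2g2f and Pla2g4e) without unstripped replicate 1 and 3 without stripped control replicate 3, and it ranged from 2 to 6 over the 9 fits that left out 1 library. The count with NGO on stripped skin was 2 to 4 over those fits, with 4 without stripped control replicate 1, and the count against unstripped skin was 1 in each. Over all genes, the calls after stripping were 1870 with all libraries, 1187 without unstripped replicate 1 and 1853 without stripped control replicate 3. With NGO on stripped skin the calls over all genes were 694, and 929 without stripped control replicate 1.

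**Figure D1:**
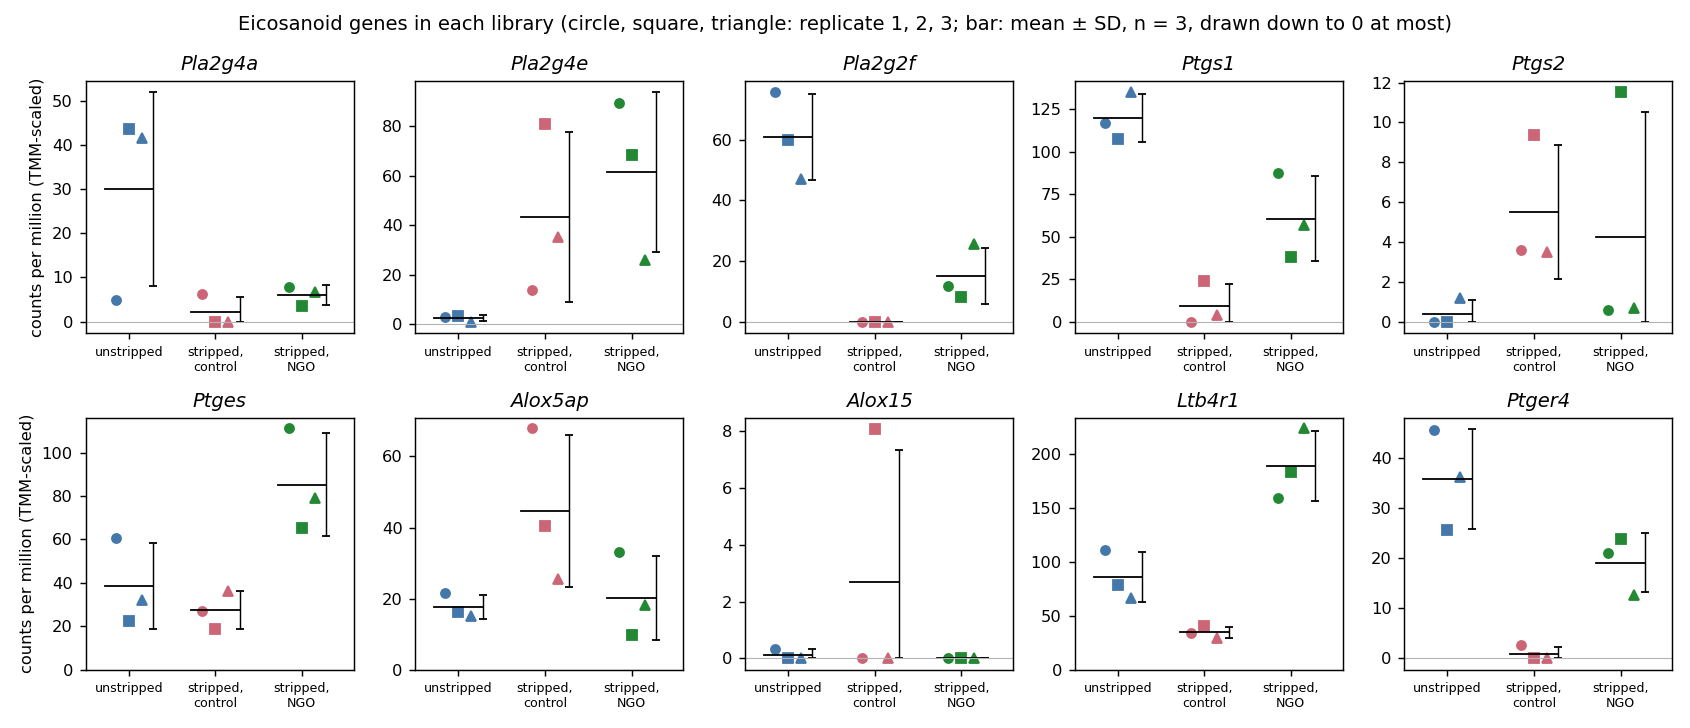
Level of each of the 10 genes in CPM (y axis, linear, its own range per gene) in the 3 libraries of each group (x axis), with the mean and an SD bar drawn down to 0 at most. Pla2g2f lies at 0 in the 3 stripped control libraries, Ltb4r1 lies at 159 to 224 CPM in NGO-treated skin above every other library, and Pla2g4e is low in unstripped skin alone.

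The promoter windows below show the 250 bases before the annotated start of the 5 members called in any comparison and of Ptgs2, the textbook inducible member, so that genes that moved together can be set beside those that did not. They come from RefSeq on GRCm38.p6, the assembly behind mm10, in which 8 of the 10 members matched a window. Alox5ap and Alox15 had no window. The RefSeq and GENCODE starts of Pla2g2f differ: its window reaches down to 138757599, while the GENCODE gene runs up to 138757626. The AP-2 match of that window lies in the stretch they share, inside the gene by GENCODE. Capitals mark matches, on either strand, to a C/EBP palindrome (TTGCGCAA), a GC box (GGGCGG) or an AP-2 element (GCCNNNGGC).
Pla2g2f, chr4:138757599-138757848, minus strand: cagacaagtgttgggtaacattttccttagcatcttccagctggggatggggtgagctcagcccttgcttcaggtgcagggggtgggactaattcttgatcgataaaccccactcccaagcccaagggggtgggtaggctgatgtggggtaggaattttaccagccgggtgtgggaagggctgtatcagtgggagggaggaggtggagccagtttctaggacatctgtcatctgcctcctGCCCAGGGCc
Ptgs1, chr2:36230176-36230425, plus strand: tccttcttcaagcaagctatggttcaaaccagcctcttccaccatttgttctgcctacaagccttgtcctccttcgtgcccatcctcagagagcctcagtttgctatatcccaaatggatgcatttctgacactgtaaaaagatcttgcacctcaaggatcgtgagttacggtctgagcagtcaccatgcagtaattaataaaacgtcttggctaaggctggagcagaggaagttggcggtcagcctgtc
Ltb4r1, chr14:55765712-55765961, plus strand: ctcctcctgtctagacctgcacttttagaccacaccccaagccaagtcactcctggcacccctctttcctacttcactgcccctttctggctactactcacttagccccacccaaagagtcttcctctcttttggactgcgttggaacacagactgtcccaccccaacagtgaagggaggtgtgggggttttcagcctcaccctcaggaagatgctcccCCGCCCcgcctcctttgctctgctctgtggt
Ptger4, chr15:5244188-5244437, minus strand: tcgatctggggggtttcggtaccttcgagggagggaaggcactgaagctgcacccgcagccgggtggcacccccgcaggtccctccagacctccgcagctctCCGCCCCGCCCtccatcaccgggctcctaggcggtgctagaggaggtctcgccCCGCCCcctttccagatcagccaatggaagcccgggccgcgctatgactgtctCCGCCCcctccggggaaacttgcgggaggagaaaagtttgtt
Pla2g4e, chr2:120245336-120245585, minus strand: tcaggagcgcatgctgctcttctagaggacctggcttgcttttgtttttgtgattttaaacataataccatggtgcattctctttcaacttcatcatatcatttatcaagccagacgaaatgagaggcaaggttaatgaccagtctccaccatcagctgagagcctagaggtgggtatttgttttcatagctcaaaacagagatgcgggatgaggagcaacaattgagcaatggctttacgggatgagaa
Ptgs2, chr1:150099781-150100030, plus strand: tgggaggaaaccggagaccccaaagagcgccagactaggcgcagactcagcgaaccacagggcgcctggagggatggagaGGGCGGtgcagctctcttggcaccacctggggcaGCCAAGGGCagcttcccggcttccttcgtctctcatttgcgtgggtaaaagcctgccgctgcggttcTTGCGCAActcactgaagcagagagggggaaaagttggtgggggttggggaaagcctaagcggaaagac

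No motif searched was found in all 4 members that fell after stripping, while Ltb4r1 and Ptger4 both held a GC box. The Pla2g2f window held 1 AP-2 match, the Ltb4r1 window 1 GC box and the Ptger4 window 4 GC boxes, of which a pair overlaps by 1 base, while the Ptgs1 and Pla2g4e windows held no match. The Ptgs2 window held the C/EBP palindrome, its first base 69 bases before the start, with 1 AP-2 match and 1 GC box. Over all 32817 windows of this length, 0.165% held the C/EBP palindrome, 32.7% a GC box and 13.7% an AP-2 match. The cyclic AMP element (TGACGTCA, 1.55% of windows) and its shorter core (TGACGT, 6.46%), the E-box (CACGTG, 6.02%), the AP-1 element (TGANTCA, 6.75%) and the NF-kB element (3.90%) were also searched and had no match in these 6 windows. Bases further upstream or past the annotated start were not searched, so a motif there would be missed. A match is a description of the letters and not a site at which a factor was measured.

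Of the 3 phospholipase genes, Pla2g2f fell after stripping and Pla2g4e rose, while Pla2g4a, also lower in the fit, was not called. Pla2g2f encodes a secreted phospholipase A2 of the upper epidermis (mm10 chromosome 4, 138750533 to 138757626, minus strand). Its level was 75.6, 59.8 and 47.2 CPM in unstripped replicates 1 to 3, it had no count in any stripped control library, and it was 11.7, 8.05 and 25.5 CPM in NGO-treated skin. The 3 groups did not overlap, with NGO-treated skin between the other two. A count of 0 over the stripped control group allows up to 3 counts, or 0.367 CPM, so Pla2g2f was at least 166-fold lower there than in unstripped skin (edgeR adjusted p = 0.000256) and at least 41.1-fold higher with NGO (adjusted p = 0.00425). The bounds cover counting error only. Against unstripped skin the NGO-treated level had a log2 fold change of -2.01 ± 0.73 (SE, adjusted p = 0.267, 95% interval -3.61 to -0.40), which passed with limma-voom (0.0478). Pla2g2f passed in all 9 fits without 1 library in the first 2 comparisons (highest adjusted p 0.00218 and 0.0150). The call with NGO was lost with limma-voom (adjusted p = 0.0590) and when only the 2 groups compared were fitted (0.123).

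Pla2g4e moved the other way. It encodes a cytosolic enzyme of the group IV family known for making N-acyl phosphatidylethanolamines (chromosome 2, 120166412 to 120245335, minus strand). Unstripped skin held 3.08, 3.52 and 1.17 CPM, stripped control skin 13.9, 81.1 and 35.5 CPM, and NGO-treated skin 89.5, 68.6 and 26.1 CPM. Every stripped library, with either cream, lay above every unstripped one, and the stripped groups overlapped. Pla2g4e rose after stripping by 4.06 ± 0.82 on the log2 scale (16.7-fold, adjusted p = 0.00463) and stood 4.55 ± 0.84 higher in NGO-treated than in unstripped skin (23.4-fold, adjusted p = 0.00832). Between the creams the difference was 0.49 ± 0.70 (adjusted p = 0.756), with a 95% interval of -1.02 to 2.01. Both calls held in all 9 fits without 1 library (highest adjusted p 0.0240 and 0.0394). Markers of deeper skin were also higher in both stripped groups than in unstripped skin, as were neutrophil, skeletal muscle and red blood cell markers. The 7 adipocyte markers summed to 25.7 to 42.2 CPM in unstripped skin, 533 to 795 CPM with control cream and 336 to 654 CPM with NGO, with Plin1 at 0 in unstripped skin and Lep and Cidec at 0 with control cream. The 8 fibroblast markers summed to 329 to 363, 904 to 1353 and 642 to 1517 CPM and the 8 endothelial ones to 34.6 to 55.1, 376 to 680 and 217 to 347 CPM, with Tie1 at 0 in unstripped skin. Within the stripped groups the replicates were not ordered alike. With control cream Pla2g4e was lowest in replicate 1, where the fibroblast and endothelial sums were highest (1353 and 680 CPM). It was highest in replicate 2, as was the adipocyte sum (795 CPM). With NGO it fell from replicate 1 to replicate 3, while the fibroblast sum rose (642, 1018 and 1517 CPM). The part of these cell types in the Pla2g4e result was not tested.

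Pla2g4a encodes cytosolic phospholipase A2 alpha, the main enzyme that frees arachidonic acid (chromosome 1, 149829618 to 149961290, minus strand). Its unstripped replicates disagreed, at 4.79, 43.7 and 41.6 CPM. Stripped control skin held 6.17, 0 and 0 CPM and NGO-treated skin 7.81, 3.45 and 6.79 CPM. Unstripped replicate 1 thus lay among the stripped libraries, and no comparison was called (log2 fold change after stripping -3.93 ± 1.63, adjusted p = 0.133). The value passed without stripped control replicate 1 (adjusted p = 0.00676), with DESeq2 (0.0425) and with limma-voom (0.0455). With NGO against control cream it was 1.61 ± 1.52 (adjusted p = 0.601), and 7.48 with a call (0.0466) without stripped control replicate 1, which leaves that group at 0. Unstripped replicate 1 stood apart in the same way for Anxa1, the gene of the phospholipase-inhibiting protein annexin A1, at 28.7 CPM against 232 and 267 CPM in the other two.

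Of the cyclooxygenase genes, Ptgs1 was the abundant one in unstripped skin and Ptgs2 the rare one. Ptgs1 encodes the cyclooxygenase that most tissues make without a stimulus (chromosome 2, 36230426 to 36252272, plus strand). It stood at 117, 107 and 135 CPM in unstripped skin, at 0, 23.9 and 3.84 CPM in stripped control skin and at 87.7, 37.7 and 56.6 CPM with NGO. The groups did not overlap. Ptgs1 fell after stripping, with a log2 fold change of -3.65 ± 0.93 (12.6-fold, adjusted p = 0.0185). The value with NGO was 2.67 ± 0.90 above stripped control skin and was not called (adjusted p = 0.103, 95% interval 0.74 to 4.60), and it was -0.98 ± 0.83 against unstripped skin (adjusted p = 0.820). The fall was lost without unstripped replicate 1 (adjusted p = 0.05003) or stripped control replicate 3 (0.0638), without the low-count filter (0.0744) and in the fit of the 2 groups alone (0.0619), and the log2 fold change was -5.74 without stripped control replicate 2. With NGO, Ptgs1 passed without stripped control replicate 2 (0.0112) and with DESeq2 (0.0344).

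Ptgs2, which encodes the cyclooxygenase that many cells switch on in inflammation (chromosome 1, 150100031 to 150108227, plus strand), was close to the detection limit. The unstripped libraries held 0, 0 and 4 counts, the stripped control libraries 7, 29 and 11, and the NGO-treated libraries 2, 50 and 4. All 3 stripped control libraries lay above all unstripped ones, at 3.52 to 9.37 CPM against 0 to 1.17 CPM, and this was not called (3.68 ± 2.08, adjusted p = 0.282, 95% interval -0.80 to 8.16). NGO-treated skin was split, with replicate 2 at 11.5 CPM and the other two at 0.601 and 0.662 CPM, and did not differ detectably from stripped control skin at this depth (-0.37 ± 1.84, adjusted p = 0.939, 95% interval -4.34 to 3.60). Replicate 2 of each stripped group had the highest Ptgs2 level. It also had the highest neutrophil marker sum (10742 CPM with control cream and 1821 CPM with NGO). Monocyte and macrophage markers likewise summed highest in replicate 2 (860 CPM with control cream and 233 CPM with NGO). The part of either cell type in the Ptgs2 level was not tested.

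Within a library the balance of both cyclooxygenase genes does not depend on scaling. Ptgs2 gave 0, 0 and 4 counts beside 342, 366 and 460 Ptgs1 counts without stripping. After stripping with control cream it gave 7, 29 and 11 beside 0, 74 and 12. With NGO it gave 2, 50 and 4 beside 292, 164 and 342. The log2 ratio of Ptgs2 to Ptgs1 (with 0.5 added to each count) was 9.35 higher in stripped control than in unstripped skin and differed by -5.76 between NGO-treated and stripped control skin. Both had p = 0.1 in an exact two-sided permutation test over libraries, the smallest that 3 against 3 can give. NGO-treated and unstripped skin differed by 3.60 (exact p = 0.2), and 1.98 without NGO replicate 2. The sizes rest on the number added to counts of 0: with 2 added, the differences were 7.33, -4.83 and 2.50 (exact p = 0.1 for each).

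Ptges, the gene of the microsomal enzyme that completes prostaglandin E2 (chromosome 2, 30889471 to 30929863, minus strand), was not called in any comparison. It stood at 60.6, 22.6 and 32.3 CPM in unstripped skin, 27.3, 18.7 and 36.4 CPM in stripped control skin and 111, 65.4 and 79.1 CPM with NGO. The unstripped and stripped control groups overlapped (-0.48 ± 0.50, adjusted p = 0.608). Each NGO-treated library lay above each of the other 6, but the differences were not called (1.63 ± 0.51 against stripped control skin, adjusted p = 0.0828; 1.15 ± 0.50 against unstripped skin, adjusted p = 0.380). The first passed with DESeq2 (0.0440) and the second with limma-voom (0.00874).

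In the lipoxygenase branch neither member was called. Alox5ap (chromosome 5, 149264767 to 149288153, plus strand) stood at 21.6, 16.1 and 15.2 CPM in unstripped skin, 67.9, 40.4 and 25.6 CPM in stripped control skin and 33.0, 9.66 and 18.2 CPM with NGO. The stripped control libraries lay above the unstripped ones, and the NGO-treated libraries overlapped both groups. The log2 fold change was 1.34 ± 0.68 after stripping (adjusted p = 0.222, 95% interval -0.12 to 2.79), -1.14 ± 0.67 with NGO against control cream (adjusted p = 0.360) and 0.20 ± 0.67 with NGO against unstripped skin (adjusted p = 0.991), the last of these -0.34 without NGO replicate 1. Per 10000 counts of neutrophil markers, Alox5ap gave 1382 to 2234 counts in unstripped skin, 37.6 to 128 in stripped control skin and 53.1 to 561 with NGO. The unstripped libraries held only 282, 398 and 290 neutrophil marker counts, so this ratio does not show which cells Alox5ap came from. Per 10000 macrophage marker counts the ranges overlapped, at 1654 to 2236, 470 to 2196 and 415 to 2007. Alox15, the gene of the 12/15-lipoxygenase of macrophages and other leukocytes (chromosome 11, 70344152 to 70352031, minus strand), had 25 counts in stripped control replicate 2, 1 count in unstripped replicate 1 and none in the other 7 libraries. Its level therefore rests on 1 library, and no fold is given.

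Both receptor genes fell after stripping, and Ltb4r1 rose with NGO. Ltb4r1 encodes BLT1, the high-affinity receptor for leukotriene B4 (chromosome 14, 55765962 to 55768494, plus strand). It stood at 112, 78.9 and 66.8 CPM in unstripped skin, 34.0, 40.4 and 29.4 CPM in stripped control skin and 159, 184 and 224 CPM with NGO. The 3 groups did not overlap and NGO-treated skin was the highest. Ltb4r1 rose with NGO against control cream by 2.45 ± 0.37 on the log2 scale (5.47-fold, adjusted p = 0.00270), and this held in all 9 fits without 1 library (highest adjusted p 0.0144) and in every other alternative tried. The fall after stripping was smaller, at -1.31 ± 0.36 (2.48-fold, adjusted p = 0.0254). It was lost without unstripped replicate 1 (0.105), unstripped replicate 2 (0.0664) or stripped control replicate 3 (0.0690), with limma-voom (0.120) and in the fit of the 2 groups alone (0.0750). The excess of NGO-treated over unstripped skin was 1.14 ± 0.35 (adjusted p = 0.143), which passed with DESeq2 (0.0436), limma-voom (0.00320) and the 2 groups alone (0.0466).

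Ptger4 encodes EP4, a prostaglandin E2 receptor that raises cyclic AMP (chromosome 15, 5206661 to 5244187, minus strand). It stood at 45.5, 25.5 and 36.1 CPM in unstripped skin, 2.57, 0 and 0 CPM in stripped control skin and 21.02, 23.7 and 12.6 CPM with NGO. The groups did not overlap, and the 5 counts of stripped control replicate 1 were the only ones in that group. Ptger4 fell after stripping, with a log2 fold change of -5.52 ± 1.33 (45.9-fold, adjusted p = 0.0138). The fall was lost without unstripped replicate 1 (0.0598), and its fitted size rests on stripped control replicate 1, without which it was -10.01. The value with NGO was 4.62 ± 1.29 above stripped control skin and missed the threshold (adjusted p = 0.0564), while it passed without stripped control replicate 1 (0.00389), without the low-count filter (0.0209) and with DESeq2 (0.000985). Against unstripped skin it was -0.90 ± 1.04 (adjusted p = 0.915). Ptger4 shares 11676 bases with Ttc33 on the opposite strand, and the strand setting of the counting is not stated. Ttc33 had 86, 89 and 45 counts without stripping, 0, 0 and 55 after stripping with control cream and 18, 15 and 56 with NGO, with no call in any comparison (adjusted p = 0.483, 0.998 and 0.804).

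**Figure D2:**
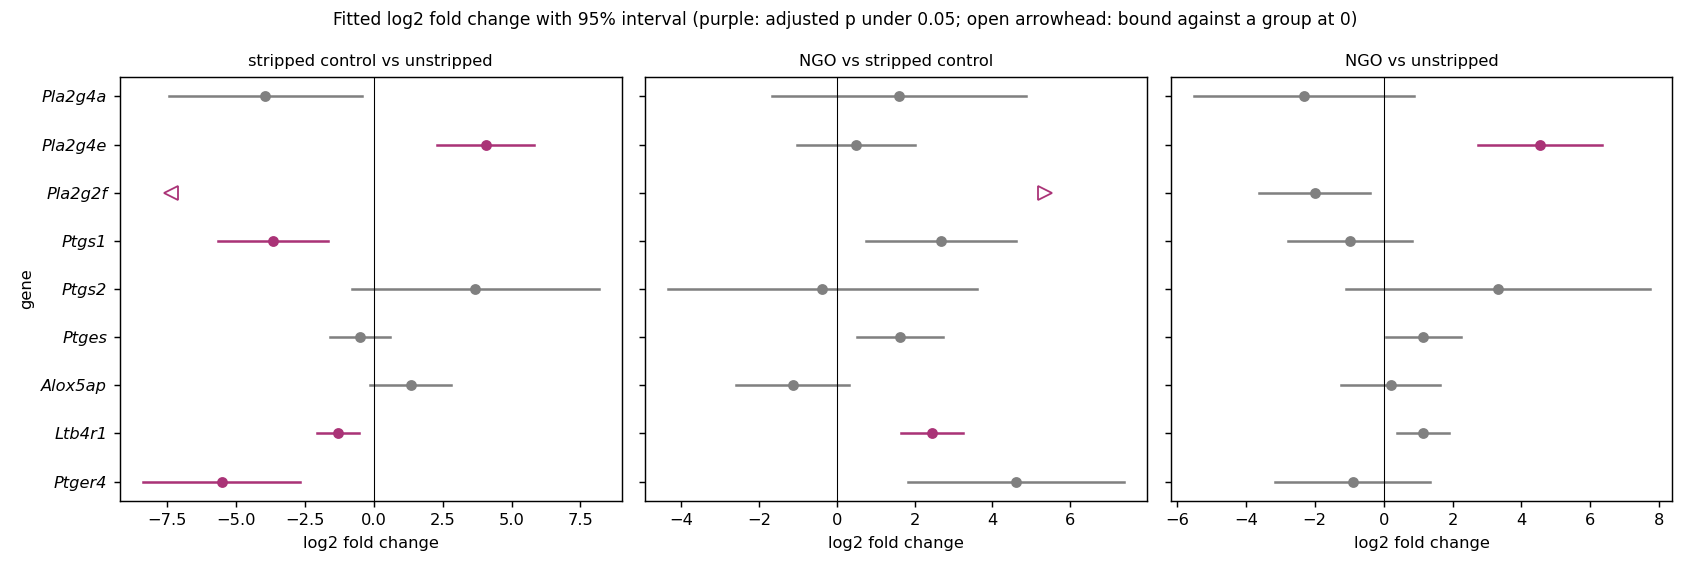
Log2 fold change (x axis) of the 9 tested genes (y axis) in the 3 comparisons, with the point as the fitted value and the line as its 95% interval, unadjusted. Purple marks an adjusted p under 0.05, and the open arrowheads give the bound for Pla2g2f, at least 166-fold lower after stripping and at least 41.1-fold higher with NGO.

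Set against basal keratinocyte markers of the same library, the members separated. This ratio was chosen after the values were seen and is given as a description. Per 10000 counts of the 8 basal markers, Ltb4r1 gave 26.1 to 35.1 counts in unstripped skin, 135 to 158 in stripped control skin and 84.9 to 154 with NGO. Ptges gave 9.78 to 19.0, 62.5 to 195 and 54.0 to 59.3. Both were thus higher relative to basal markers in all 6 stripped libraries than in any unstripped one. In CPM, however, Ltb4r1 fell after stripping and Ptges overlapped between unstripped and stripped control skin. The basal marker sum was 23093 to 31817 CPM in unstripped and 1865 to 2998 CPM in stripped control skin. Any gene that fell by a smaller factor therefore rises on this scale, and the share of all genes that do so was not counted. Pla2g4e gave 0.458 to 1.52, 58.5 to 271 and 18.0 to 56.6 on this scale, the same order as its CPM for stripped against unstripped skin but with each NGO-treated library below each stripped control one (56.6 against 58.5 at the closest).

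Ptgs1 overlapped between all groups on this scale. It gave 36.8 to 52.7 counts in unstripped skin, 0 to 79.8 in stripped control skin and 31.2 to 46.7 with NGO. The overlap of NGO-treated with unstripped skin may depend on the marker. Krt5, a basal marker, stood at 5819 to 6762 CPM in unstripped skin and 4972 to 7041 CPM with NGO, while the sum was lower with NGO. Ratios to single basal markers were not computed. Ptger4 gave 11.0 to 14.3, 0 to 10.8 and 8.65 to 19.6, so 1 stripped control library lay just below unstripped skin, the other two were at 0, and NGO-treated skin overlapped both groups. Pla2g2f stayed apart: 18.4 to 25.9 counts without stripping, 0 after stripping with control cream and 6.23 to 17.5 with NGO. Against suprabasal markers, whose layer it is known from, Pla2g2f gave 23.1 to 42.3, 0 and 10.1 to 17.9. The stripped control libraries held 8476 suprabasal marker counts in all, so that 0 Pla2g2f counts allow at most 3.54 per 10000, below every other library. That order depends on the marker. Krt10 and Krt1, the defining keratins of these layers, stood at 164 to 352 and 35.7 to 88.5 CPM with NGO against 2594 to 8994 and 576 to 590 CPM in unstripped skin. Per 10000 Krt1 counts, Pla2g2f gave 801 to 1312 counts in unstripped skin and 1711 to 2879 with NGO, and per 10000 Krt10 counts 52.5 to 291 and 332 to 1277, so on both keratins NGO-treated skin was the higher.

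**Figure D3:**
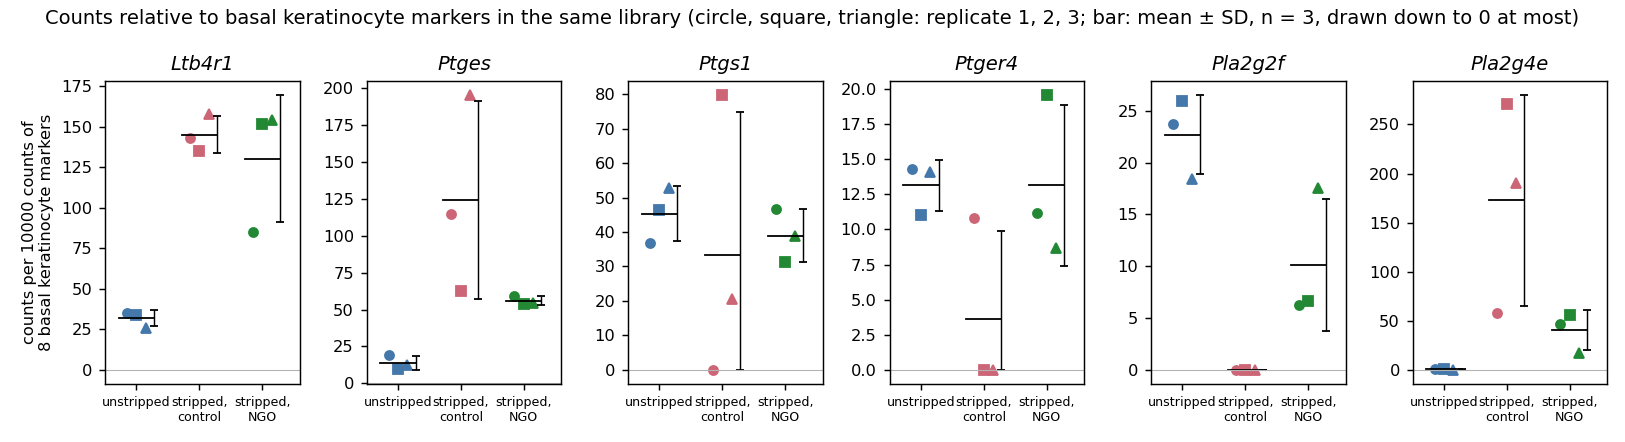
Counts of 6 genes per 10000 counts of the 8 basal keratinocyte markers in the same library (y axis, its own range per gene), for the 3 libraries of each group (x axis), with the mean and an SD bar drawn down to 0 at most. Ltb4r1 lies at 26.1 to 35.1 in unstripped skin and at 84.9 or more in every stripped library, while Pla2g2f is 0 in the 3 stripped control libraries.

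The other 65 listed genes of the pathway all had an entry, and 43 were tested. After stripping 2 rose and 8 fell. With NGO against control cream 4 rose and 0 fell, and against unstripped skin 0 rose and 1 fell. Over all genes tested, 5.97% rose and 7.64% fell, 3.87% and 1.18%, and 2.06% and 0.451%. Their median log2 fold change was -0.71, 0.40 and -0.22 in the 3 comparisons, beside -0.20, 0.07 and -0.07 over all genes. Setting genes at 0 to their bound could not move these medians, because each bound lies on the same side of the median as its fitted value.

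Among 11 other phospholipase-related genes tested, Pla2g12a rose after stripping, and Pla2g4f and Anxa1 fell. Pla2g12a, a secreted phospholipase A2 gene, went from 93.7, 49.8 and 48.1 CPM in unstripped skin to 130, 435 and 417 CPM in stripped control skin (2.36 ± 0.46, adjusted p = 0.00346) and stood at 110, 103 and 117 CPM with NGO (-1.57 ± 0.44 against control cream, adjusted p = 0.0581). That last value passed with RLE (0.0452) and upper-quartile scaling (0.0464), without the low-count filter (0.0109), with DESeq2 (0.00636) and limma-voom (0.0296), and without stripped control replicate 1 (0.00434). Pla2g4f, a neighbour of Pla2g4e in the group IV family, had a different profile: 22.6, 19.3 and 23.5 CPM in unstripped skin, 0 in all stripped control libraries (at least 59.3-fold lower, adjusted p = 0.00528) and 17.1, 3.45 and 11.9 CPM with NGO (at least 29.5-fold higher, adjusted p = 0.0253). The rise of Pla2g4f was lost without any 1 unstripped replicate or NGO replicate 1 or 3 (up to 0.0777), with limma-voom (0.0824) and in the 2 groups alone (0.153). The fall of Anxa1 (-2.38 ± 0.66, adjusted p = 0.0277) was lost without unstripped replicate 2 or 3 or stripped control replicate 1 or 3 (up to 0.116), with limma-voom (0.273) and in the 2 groups alone (0.0690).

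Of 11 other prostanoid genes tested, Hpgds alone was called. It encodes the hematopoietic prostaglandin D synthase and went from 102, 89.1 and 71.5 CPM in unstripped skin to 11.3, 15.2 and 32.3 CPM in stripped control skin (-2.15 ± 0.63, adjusted p = 0.0379). It stood at 33.3, 38.7 and 8.11 CPM with NGO (0.44 ± 0.61 against control cream, adjusted p = 0.752), so the stripped groups overlapped. The fall was lost without any 1 unstripped replicate, stripped control replicate 1 or 2, or NGO replicate 1 (up to 0.128), and with limma-voom (0.0600).

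Of 15 other lipoxygenase and leukotriene genes tested, 5 fell after stripping (7.64% of all genes fell) and 3 of these rose with NGO (3.87% of all genes rose). Both counts use the same stripped control libraries. Alox12e, the mouse epidermal 12-lipoxygenase gene, stood at 286, 143 and 125 CPM without stripping, 0 after it with control cream and 25.5, 6.67 and 8.27 CPM with NGO (at least 36.7-fold above control cream, adjusted p = 0.00370). It was the only gene of the pathway lists still called against unstripped skin, with a log2 fold change of -3.78 ± 0.64 (adjusted p = 0.00767) that was lost without unstripped replicate 1 (0.0568). Cyp4f39, a hydroxylase gene of skin lipid synthesis, had 46.5, 28.7 and 26.4 CPM, then 0, then 23.1, 38.2 and 38.6 CPM (at least 90.6-fold above control cream, adjusted p = 0.00236), so its NGO-treated and unstripped levels overlapped. Aloxe3, a lipoxygenase gene of the water barrier, had 73.9, 27.0 and 28.7 CPM, then 0, 0 and 1.28 CPM, then 27.0, 12.0 and 19.2 CPM (5.28 ± 1.18 above control cream, adjusted p = 0.0247).

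The calls with NGO for Alox12e and Aloxe3 were lost with limma-voom (0.0944 and 0.0910) and in the 2 groups alone (0.137 and 0.182), and that of Aloxe3 also without unstripped replicate 1 or NGO replicate 1 or 3 (up to 0.0777). Alox5, the 5-lipoxygenase gene that partners Alox5ap, had 30, 27 and 53 counts without stripping, 0 after stripping with control cream (at least 30.6-fold lower, adjusted p = 0.0320) and 16, 4 and 13 counts with NGO (adjusted p = 0.122 against control cream). Its fall was lost without any 1 unstripped replicate or stripped control replicate 2 or 3 (up to 0.128). After stripping with control cream Alox5 had no counts, while Alox5ap lay above every unstripped library without a call (edgeR adjusted p = 0.222). The difference between these genes was not tested. The fifth gene that fell, Alox12b, also of the water barrier, was named after its values were seen. It had 47, 23 and 26 counts without stripping and 0 after it (adjusted p = 0.0426), and its call was lost in 8 of the 9 fits without 1 library (up to 0.131).

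Of 6 other receptor genes tested, Fpr2 was called. It encodes a formyl peptide receptor that also binds lipoxin A4 and annexin A1 and is abundant on neutrophils. It stood at 4.11, 1.17 and 0 CPM in unstripped skin, 70.0, 91.8 and 21.1 CPM in stripped control skin (5.11 ± 1.17, adjusted p = 0.0106) and 11.1, 14.5 and 4.30 CPM with NGO (-2.61 ± 1.02 against control cream, adjusted p = 0.161; 2.50 against unstripped skin, adjusted p = 0.364). The first of these passed with DESeq2 (0.0323) and the second with limma-voom (0.0470). Its groups did not overlap in any of the 3 comparisons, as was the case for 38.5%, 25.2% and 26.2% of all genes tested, and it passed after stripping in all 9 fits without 1 library (highest adjusted p 0.0471). The remaining 11 receptor genes, Ptger1, Ptger2 and Ptger3 among them, did not pass the low-count filter.

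The genes most like each called member were found by the root mean square difference of log2 CPM over the 9 libraries, each gene centred on its own mean, among 10307 candidates whose average log2 CPM was 3 or more. For Ltb4r1 they were Tkt (0.26), Sfn (0.29) and Ly6a (0.36). Sfn, the gene of the keratinocyte protein 14-3-3 sigma, had 890 ± 374 CPM without stripping, 329 ± 72.2 with control cream and 1890 ± 503 with NGO (SD, n = 3). For Ptgs1 they were Esrp1 (0.30), Elovl7 (0.54) and Rarg (0.58), of which Esrp1, a splicing regulator of epithelial cells, had 202 ± 13.2, 17.3 ± 24.4 and 104 ± 39.5 CPM. For Pla2g2f they were Aldh3b2 (0.36), Serpina3j (0.37) and Sytl1 (0.41), and for Ptger4 Gatsl3 (0.44), Xrn1 (0.44) and Arhgef4 (0.46). Pla2g4e had no near match, with Fabp4 (0.84), Ier5l (0.84) and Mup2 (0.85) the closest, and Fabp4, which is one of the adipocyte markers, at 16.2 ± 2.72, 194 ± 9.94 and 206 ± 78.8 CPM.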

How the data were processed

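For each of the 9 QuantSeq 3′-tag libraries the authors deposited raw read counts by gene symbol, made from 500 ng of total RNA per the labels' protocols. Bowtie2, bedtools and mm10 are named in the submitters' processing notes. The annotation, strand setting and handling of reads with several matches are not given in the sources used here. The members and gene lists were chosen with earlier results of these data known.

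Counts were fitted in R 4.3.3 with edgeR 4.0.16 (quasi-likelihood test, robust, TMM factors, filterByExpr, group as the only factor, all 9 libraries). P-values were adjusted by Benjamini-Hochberg over the 13740 genes tested and called under 0.05. SEs are the log2 fold change divided by the square root of F. Entries that repeat a symbol were kept apart. Folds against a group without counts use a floor of 3 counts over the group. The method was tried on simulated counts with the same spread for every gene. No group was set to 0 there, so the simulation is no check of calls against groups without counts. All 10 members are named, with up to 4 called genes per pathway list and the 3 nearest genes per called member. Coordinates come from GENCODE M21 (mm10). Alternatives were RLE and upper-quartile scaling, no filter or 20 counts in 3 libraries, DESeq2 1.42.0, limma-voom 3.58.1 with weighted samples, a replicate block, the 2 groups alone, library sizes computed after removing marker genes of muscle, fat, hair and blood, and leaving out each library.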

Additional observations from a re-analysis of the deposited data

How the results depend on the processing

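For members called after stripping (5), with NGO against control cream (2) and with NGO against unstripped skin (1), counts under other settings were 3, 1 and 2 with the 2 groups alone, and 5 and 2 with DESeq2 and 1 and 4 with limma-voom in the last 2 comparisons. Leaving out 1 library gave 2 to 6, 2 to 4 and 1 to 1. For all genes (1870, 694 and 345 called), DESeq2 gave 2976, 1721 and 756, limma-voom 414 and 1352 and the 2 groups alone 118 and 602 in the last 2 comparisons, and leaving out 1 library gave 1159 to 2124, 206 to 929 and 214 to 495. RLE scaling moved the median log2 fold change of all genes after stripping from -0.20 to -0.07, and with NGO against control cream from 0.07 to -0.05. The log2 ratio of Ptgs2 to Ptgs1 ranged from 7.81 to 10.43, -7.38 to -4.21 and 1.98 to 4.56 without 1 library, and was 7.33, -4.83 and 2.50 with 2 added to each count.

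Values near 0 changed sign without a call. Ptgs2 with NGO against control cream was 0.25 without stripped control replicate 2, 0.14 without NGO replicate 1 and 0.10 without NGO replicate 3 (-3.04 to 0.25 over all 9 such fits). Alox5ap against unstripped skin was -0.34 to 0.53. Cyp4f39 against unstripped skin (-0.02) was 0.0187 with upper-quartile scaling, 0.0515 without the filter, 0.15 with limma-voom, 0.0218 with the 2 groups alone and -0.19 to 0.27 without 1 library. The causes were not tested.

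Whether the replicate numbers pair the libraries is not settled. Deviations of same-numbered libraries from their group means correlated at -0.06 to 0.09 (mean 0.02). Those of differently numbered libraries correlated at -0.14 to 0.07 (mean -0.01), and 5 of 9 libraries correlated best with their own number. With 3 libraries per group these values cannot exclude pairing. With the replicate block 5, 2 and 1 members and 1650, 559 and 313 genes were called, and Alox5, Hpgds and Alox12b after stripping (adjusted p = 0.0745, 0.0757 and 0.0767) and Pla2g4f with NGO (0.0582) lost their calls. Libraries with few or no counts, as for Ptgs2 and Alox15, limit what can be seen. Of 30 member values per group, 10 were 0 in stripped control skin, 4 in unstripped skin and 3 with NGO. The stripped control libraries also had fewer entries above 0 than the unstripped ones, in replicates 2 and 3 despite more total counts. The bounds against stripped control skin rest on such zeros, and the reason for them was not tested.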
